A study of Mus musculus with 4 samples.

Results

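The immediate early response (IER) genes and the BTG/TOB antiproliferative genes were followed in mouse ST2 cells over the first hours after low-intensity pulsed ultrasound (LIPUS). The set holds the 3 IER genes Ier2, Ier3 and Ier5 and the 5 BTG/TOB genes Btg1, Btg2, Btg3, Tob1 and Tob2. Its members were chosen by gene symbol, with earlier results of these data known. Of these 8 genes, 7 had at least 1 probe set annotated to a single symbol, with 17 such probe sets in all, among 18193 genes on the array with such a probe set. All 7 lay above the lower limit used for dim signals. The only probe set listed for Btg3 is also listed for Gm7334, a transcribed pseudogene, so it gives no value for Btg3 itself and stands outside the counts.

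ST2 is an immortal line of fibroblast-like stromal cells from the bone marrow of BALB/c mice, and LIPUS is a mechanical stimulus used clinically on healing fractures. The groups were untreated control cells and cells given LIPUS at 25 mW per square cm for 20 min and then cultured for 0.5, 1 or 3 h; all were kept at 37 °C in RPMI 1640 medium with 10% fetal bovine serum under 5% CO2. Each group was 1 Affymetrix Mouse Genome 430 2.0 array of total RNA, so there are no replicates, no test and no p-value, and differences between cultures were not measured. The labels do not say when the control cells were harvested or whether they were handled as the exposed cells were.

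IER genes are switched on within minutes by serum, growth factors and stress without new protein synthesis, and their transcripts are short-lived. Ier2 encodes a nuclear regulator of transcription, Ier3 a stress-inducible protein that modulates survival and MAP kinase signalling, and Ier5 a nuclear protein that brings the phosphatase PP2A to the heat shock factor HSF1. The BTG and TOB proteins share an amino-terminal domain that binds the deadenylase subunits of the CCR4-NOT complex, through which they speed the shortening of mRNA poly(A) tails, and they restrain passage through the G1 phase of the cell cycle. Btg2 is the family member known both as an immediate early gene and as a target of p53, whereas Btg1 is known for high expression in resting cells. Tob1 and Tob2 carry in addition motifs that bind the poly(A)-binding protein.

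Upstream sequence is shown for Btg2, Btg1 and Ier5. Btg2 had the widest range over the 4 arrays, and Btg1 is its closest relative in the set and a gene with little range. Ier5, like Btg2, was brightest at 1 h by the probe set used, though by only 0.03 on the log2 scale over 0.5 h. Each run is the 250 bases before the RefSeq start on build GRCm38.p6, 5′ to 3′ on the gene's strand, with capitals marking matches to the motifs searched.
Btg2 (chr1:134079156-134079405, minus strand): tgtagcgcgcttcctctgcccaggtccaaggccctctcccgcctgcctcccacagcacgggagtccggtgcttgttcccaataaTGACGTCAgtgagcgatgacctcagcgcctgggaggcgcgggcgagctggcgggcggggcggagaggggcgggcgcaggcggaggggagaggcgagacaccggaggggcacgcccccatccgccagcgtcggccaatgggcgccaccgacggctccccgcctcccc
Btg1 (chr10:96616751-96617000, plus strand): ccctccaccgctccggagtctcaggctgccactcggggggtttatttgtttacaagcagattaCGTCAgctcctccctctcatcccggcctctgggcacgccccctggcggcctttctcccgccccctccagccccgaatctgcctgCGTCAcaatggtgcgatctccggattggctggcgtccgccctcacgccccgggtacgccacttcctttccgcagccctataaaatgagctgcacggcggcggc
Ier5 (chr1:155099637-155099886, minus strand): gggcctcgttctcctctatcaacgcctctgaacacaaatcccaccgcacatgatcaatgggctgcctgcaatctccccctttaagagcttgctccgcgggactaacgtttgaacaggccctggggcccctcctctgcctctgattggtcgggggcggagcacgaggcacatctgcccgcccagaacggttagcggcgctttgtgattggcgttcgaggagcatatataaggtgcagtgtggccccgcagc
The motifs were the serum response (CArG) box, the AP-1 site TGACTCA, the cAMP response site TGACGTCA, its shorter core TGACG, the heat shock core GAANNTTC and the EGR site GCGTGGGCG, each on both strands. The RefSeq table matched 7 of the 8 members, all but Ier2, with 8 promoters because Btg3 has 2. The full cAMP response site was in 1 of these 8, that of Btg2, at 166 to 159 bases before the start, and in 1.55% of all 32851 promoters. The core TGACG was in those of Btg1, Btg2 and Tob1 and in 17.8% of all promoters, and the match in Btg2 lies inside its full site. In the Btg1 window it lies on the opposite strand at 2 places, and the Ier5 window holds no match. The CArG box, AP-1 site, heat shock core and EGR site were in 0 of the 8 windows and in 1.47%, 4.46%, 6.69% and 0.536% of all promoters.

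All values are the authors' log2 signals per probe set, and the brightest probe set of a gene stands for it. The pairwise Pearson's r over all probe sets ran from 0.996 to 0.997, and 22453 to 22703 probe sets per array lay above the median of all values, log2 5.23, to which dimmer signals were raised. A gene is said to have risen or fallen when 2 arrays differed by at least 1.5-fold, a log2 ratio of 0.58. As a measure of technical error, the SD of a gene's log2 ratio to control was estimated from pairs of probe sets over 5004 genes. It was 0.11 at 0.5 h, 0.16 at 1 h and 0.14 at 3 h. Error shared by the probe sets of an array, as from RNA preparation or labelling, cancels in this SD and was not measured. The 12 probe sets of the spiked-in poly-A controls differed from the control array by a median log2 of −0.05, 0.28 and 0.41 at 0.5, 1 and 3 h, and those for 18S ribosomal RNA by 0.96, 1.91 and 1.79; the part of these shifts in the ratios below was not tested. Of the 9 stromal markers, 8 lay above the floor on all 4 arrays and Thy1 did not, with a log2 summed signal of 16.2 on each array. Above the floor on all arrays were 1 of 6 haematopoietic markers (Csf1r), 1 of 4 endothelial markers (Kdr) and 1 of 3 epithelial markers (Epcam), while Ptprc, Pecam1 and Cdh1 were not. In bulk RNA, fewer expressing cells and less RNA per cell cannot be told apart.

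At 0.5 h after LIPUS, Ier2 and Btg2 rose and no member fell. These are 2 of 7 measured members, where 0.372% of 11574 genes rose and 0.104% fell. Btg2 was short of the rule at 0.5 h with the mean over its 2 probe sets (log2 ratio 0.46) and with the mean of the other 3 arrays in place of the control (0.39), which leaves 1 of 7, Ier2. That mean includes the 1 h array, where Btg2 was highest, so it is a different comparison and not a check on the ratio to control. The median log2 ratio of the 7 members was 0.07, against 0.01 over all genes, and 4 of 7 were above 0, as were 52.7% of all genes. At 1 h, Btg2 alone was past 1.5-fold, 1 of 7 members, where 0.948% of 11497 genes rose and 0.331% fell. The members' median was 0.24 against 0.02 over all genes, and 7 of 7 were above 0, as were 54.7% of all genes. Of these, Tob2, Btg1 and Tob1, at 0.02, 0.04 and 0.08, were within the technical SD of 0.16, so their side of 0 is uncertain. A dimmer probe set of Ier5 was within it too, at 0.08. Tob2 was at −0.02 after quantile normalization and after cyclic loess, and Tob1 at −0.25 with the mean over probe sets. At 3 h, 0 of 7 members were past 1.5-fold in either direction, where 0.346% of 11574 genes rose and 0.181% fell, and the members' median was 0.12 against 0.01. At 2-fold, 0 of 7 members were called in any comparison. By that rule 0.138%, 0.191% and 0.0691% of genes were higher at 0.5, 1 and 3 h, and 0% were lower at each time. Over the step from 0.5 h to 1 h the 2-fold shares were 0.0348% higher and 0.00869% lower, and from 1 h to 3 h they were 0% and 0.087%. The 3 comparisons share the control array, so a low or high signal there would move a member's 3 ratios together.

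**Figure D1:**
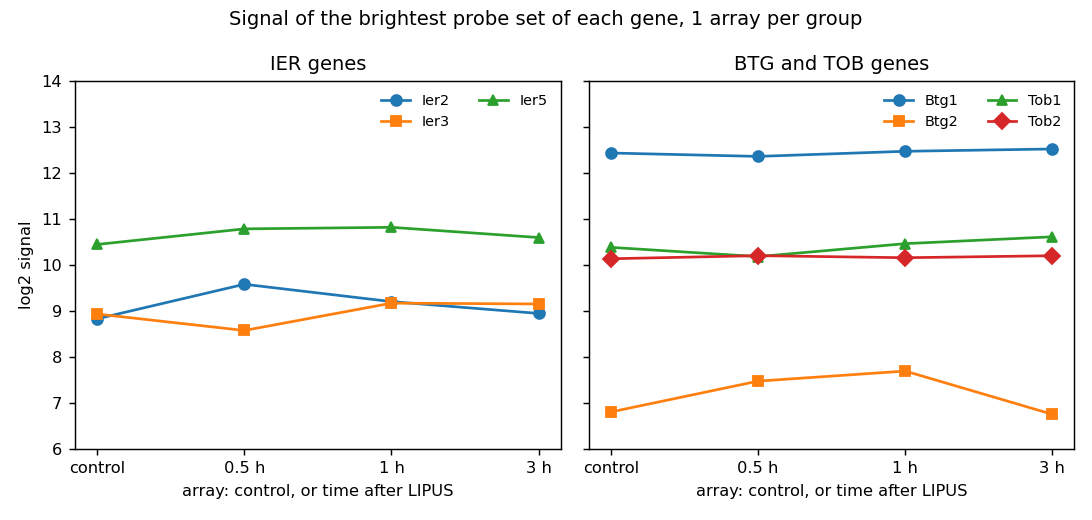
Log2 signal (vertical axis) of the brightest probe set of each measured gene on the 4 arrays (horizontal axis: control, then 0.5, 1 and 3 h after LIPUS), with IER genes on the left and BTG and TOB genes on the right; each point is 1 array. Ier2 peaks at 9.58 at 0.5 h and Btg2 at 7.69 at 1 h, while Btg1 and Tob2 run almost flat; heights of different genes are not comparable because probe sets differ in brightness.

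Ier2 was the member that rose most at 0.5 h. Its 1 probe set gave a log2 signal of 8.83 in the control, then 9.58, 9.20 and 8.94 at 0.5, 1 and 3 h. The 0.5 h array was the highest and the control the lowest, and the 2 later arrays stepped down between them. Against the control, Ier2 rose 1.68-fold at 0.5 h, a log2 ratio of 0.75 that ranked 30 from the top among 11574 genes. At 1 h the log2 ratio was 0.37, short of the rule, and at 3 h it was 0.12, smaller than the technical SD of 0.14. From 0.5 h to 1 h the log2 ratio was −0.38, also short of the rule. No second probe set was available to set beside these values.

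Ier5 was higher on the 0.5 h and 1 h arrays than in the control by an amount short of 1.5-fold. Its brightest probe set gave log2 signals of 10.45 in the control, then 10.78, 10.82 and 10.60 at 0.5, 1 and 3 h. The log2 ratios to control were 0.34 at 0.5 h, 0.37 at 1 h and 0.15 at 3 h. At 0.5 h all 3 probe sets of Ier5 lay close together, between 0.34 and 0.40, and the brightest ranked 135 from the top of all genes. At 1 h they spread from 0.08 to 0.70, so that 1 of the 3, the dimmest, was past 1.5-fold. That probe set gave log2 signals of 6.86 in the control, then 7.26, 7.55 and 7.05 at 0.5, 1 and 3 h. The remaining probe set was brightest at 0.5 h instead, at 8.58 against 8.23 in the control, so the probe sets differ on whether the signal went on up after 0.5 h.

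Ier3 took another course, with its lowest signal at 0.5 h. Its 1 probe set gave log2 signals of 8.93 in the control, then 8.57, 9.17 and 9.15 at 0.5, 1 and 3 h. The 0.5 h array lay below the other 3, and the 1 h and 3 h arrays lay above the control. The log2 ratio to control was −0.36 at 0.5 h, which ranked 92 from the bottom of 11574 genes, then 0.24 at 1 h and 0.22 at 3 h, and none of these passed the rule. From 0.5 h to 1 h Ier3 rose 1.51-fold, a step that does not involve the control array, and it was the 1 of 7 members to do so, where 0.348% of 11507 genes rose and 0.104% fell. This call lies at the rule: the log2 step was 0.59, and it was 0.55 after quantile normalization and 0.56 after cyclic loess. Ier5l, a relative of Ier5 outside the set, had log2 ratios to control of −0.13, −0.11 and −0.39 at 0.5, 1 and 3 h.

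Btg2 was the member with the widest range, 0.94 on the log2 scale. Its brightest probe set gave log2 signals of 6.80 in the control, then 7.47, 7.69 and 6.75 at 0.5, 1 and 3 h. The 0.5 h and 1 h arrays stood together above the control and 3 h arrays, which lay within a log2 ratio of −0.05 of each other (3 h minus control). Btg2 rose 1.59-fold at 0.5 h and 1.85-fold at 1 h against the control, log2 ratios of 0.67 and 0.89 that ranked 33 and 30 from the top. From 1 h to 3 h it fell 1.92-fold, by 0.94 on the log2 scale, which ranked 13 from the bottom of 11494 genes. It was the 1 of 7 members to fall over that step, where 0.452% of genes fell and 0.0174% rose.

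The dimmer probe set of Btg2 was also higher at 0.5 h and 1 h than in the control, with smaller ratios. It had log2 signals of 6.50 in the control, then 6.74, 6.91 and 6.20 at 0.5, 1 and 3 h, giving log2 ratios to control of 0.25, 0.41 and −0.29. Both probe sets were highest at 1 h and lowest at 3 h, and only the dimmer one put the 3 h array under the control by more than the technical SD. The 2 probe sets differed by 0.42 in their log2 ratio at 0.5 h, where the SD of such a difference over 5004 genes was 0.15. With the mean over both probe sets, which ends the call at 0.5 h, the log2 ratio was 0.65 at 1 h and −0.82 from 1 h to 3 h, still past the rule. Both probe sets lie below the 75th percentile of all signals, log2 7.72, so with the floor there Btg2 has no ratio.

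Btg1 was bright and moved little. Its brightest probe set gave log2 signals of 12.43 in the control, then 12.36, 12.47 and 12.52 at 0.5, 1 and 3 h, a range of 0.16. The log2 ratios to control were −0.07, 0.04 and 0.09, each smaller than the technical SD at its time. The next brightest probe set had ratios of −0.10, −0.01 and 0.02. The dimmest, with a log2 signal of 5.94 in the control, stood apart at 1 h, at 0.30.

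Tob1 had its lowest signal at 0.5 h and its highest at 3 h by the probe set used. The log2 signals were 10.38 in the control, then 10.18, 10.46 and 10.61 at 0.5, 1 and 3 h, and the log2 ratios to control were −0.20, 0.08 and 0.23, none past the rule. A second, dim probe set read 6.18 in the control, then 6.03, 5.59 and 5.72 at 0.5, 1 and 3 h. Its ratios were −0.15, −0.59 and −0.46, so it was past 1.5-fold lower at 1 h, where the bright probe set was above the control. The 2 probe sets of Tob1 thus share a direction at 0.5 h and differ in it at 1 h and 3 h.

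Tob2 was the flattest member. The brightest of its 5 probe sets had log2 signals of 10.13 in the control, then 10.20, 10.16 and 10.20 at 0.5, 1 and 3 h, a range of 0.07. This probe set is of a design type that can also bind other transcripts. Over all 5 probe sets the log2 ratios to control lay between −0.15 and 0.09 at 0.5 h, between −0.11 and 0.11 at 1 h and between −0.08 and 0.07 at 3 h. Of these 15 ratios, 1 was larger in size than the technical SD of its time, the −0.15 at 0.5 h. The probe set shared by Btg3 and Gm7334 had log2 signals of 8.91 in the control, then 9.17, 9.13 and 9.07 at 0.5, 1 and 3 h, and how much of it is Btg3 is unknown. Btg4, a germ-line relative outside the set, lay under the floor on all 4 arrays.

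**Figure D2:**
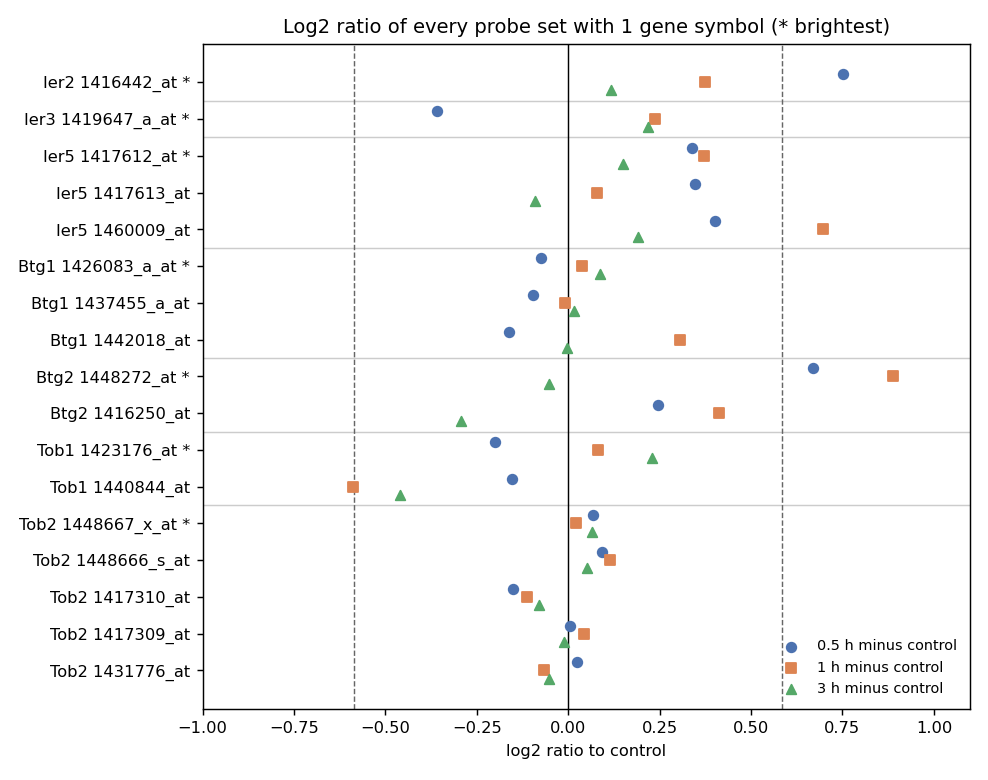
Log2 ratio to control (horizontal axis) of each of the 17 probe sets with a single gene symbol (vertical axis, grouped by gene, the brightest marked with a star), with circles for 0.5 h, squares for 1 h and triangles for 3 h; dashed lines mark 1.5-fold. Both Btg2 probe sets lie right of 0 at 0.5 h and 1 h and left of 0 at 3 h, the Ier5 probe sets lie together at 0.5 h and spread from 0.08 to 0.70 at 1 h, and the 2 Tob1 probe sets part at 1 h and 3 h.

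By the highest signal of the brightest probe set, 2 of the 7 members peaked at 0.5 h (Ier2 and Tob2). A further 3 peaked at 1 h (Ier3, Ier5 and Btg2) and 2 at 3 h (Btg1 and Tob1). Some of these peaks are uncertain. The log2 step from 1 h to 3 h was −0.02 for Ier3 and 0.05 for Btg1, inside the technical SD of 0.10. For Ier5 the step from 0.5 h to 1 h was 0.03, where the SD was 0.13. By these probe sets none was highest in the control, and 3 were lowest there (Ier2, Ier5 and Tob2). Other probe sets differed: a dimmer one of Tob1 and one of Tob2 were highest in the control. Another of Ier5 was highest at 0.5 h and lowest at 3 h. The same counts over all genes are not given here. For the brightest probe set of Tob2 the whole range, 0.07, was smaller than the technical SD of every comparison, 0.10 to 0.16. For Btg1 the range was 0.16, and all 3 of its probe sets were lowest at 0.5 h. By the brightest probe sets, the 3 members Ier3, Btg1 and Tob1 had their lowest signal at 0.5 h, which is where Ier2 had its highest.

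**Figure D3:**
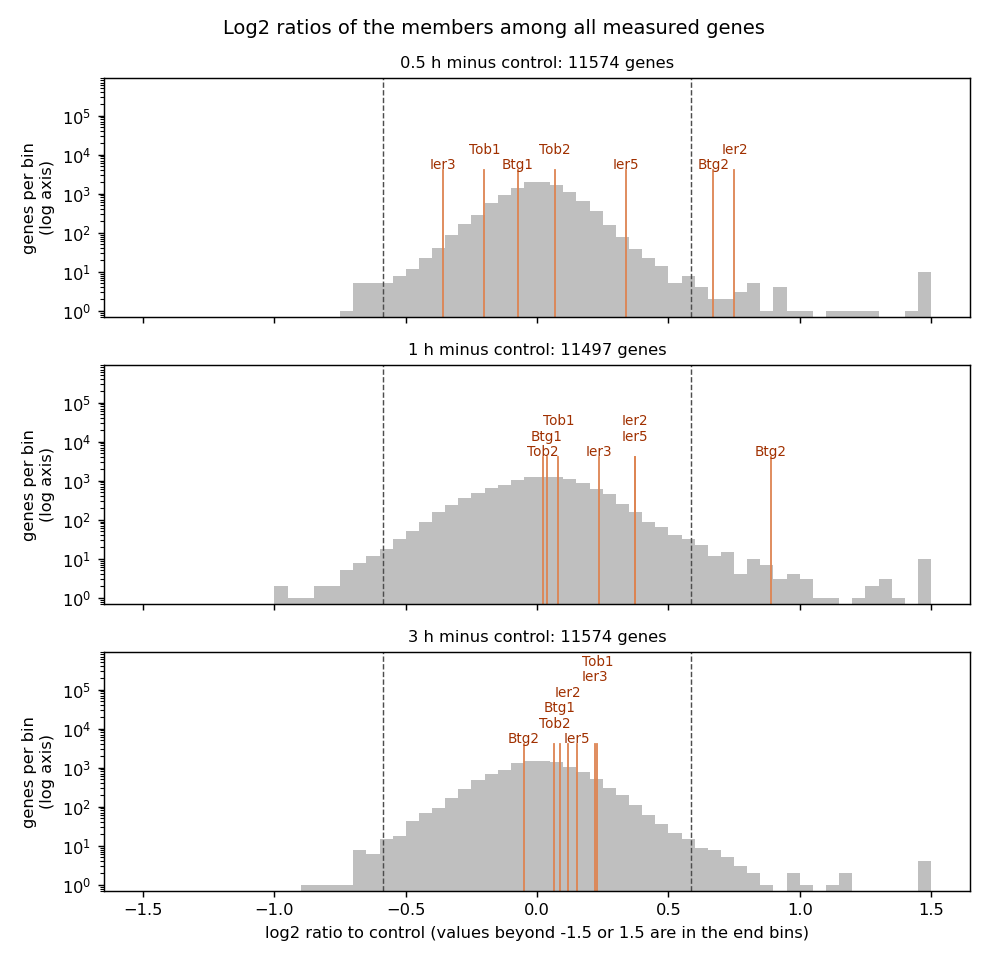
Number of genes per bin of log2 ratio to control (vertical axis, log scale; horizontal axis, bins of log2 ratio with values past 1.5 in size in the end bins) at 0.5, 1 and 3 h, with a line at each member and dashed lines at 1.5-fold. At 0.5 h Ier2 and Btg2 stand past the upper line at 0.75 and 0.67, at 1 h Btg2 does at 0.89, and at 3 h all 7 members lie between −0.05 and 0.23.

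For the 3 members with the widest range, the genes whose log2 ratios at the 3 times lay nearest were found among 11684 other genes by Euclidean distance, which uses the same control array for every gene. Only the brightest probe set of each gene was used. The dimmer one of Btg2, at 0.25, 0.41 and −0.29, was left out and could have other neighbours. Nearest to Btg2 were Zfand2a, a zinc finger protein gene, at a distance of 0.17, Gadd45g, of the growth arrest and DNA damage family, at 0.26, and Slc30a1, a zinc exporter gene, at 0.27. Zfand2a had log2 signals of 9.01 in the control, then 9.61, 10.01 and 9.07 at 0.5, 1 and 3 h. Because these genes were picked by their ratios at the 3 times, a course like that of the member follows from the choice. Nearest to Ier2 were Csrnp2 at 0.13, Klf6, a zinc finger transcription factor gene, at 0.23, and Ddx23, an RNA helicase gene, at 0.24. Csrnp2 had log2 signals of 7.47 in the control, then 8.12, 7.90 and 7.52 at 0.5, 1 and 3 h. Nearest to Ier3 were AU041133 at 0.07, 9130019O22Rik at 0.08 and Jarid2, which encodes a partner of the Polycomb complex, at 0.09. Jarid2 had log2 signals of 7.32 in the control, then 7.05, 7.56 and 7.57 at 0.5, 1 and 3 h.

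**Figure D4:**
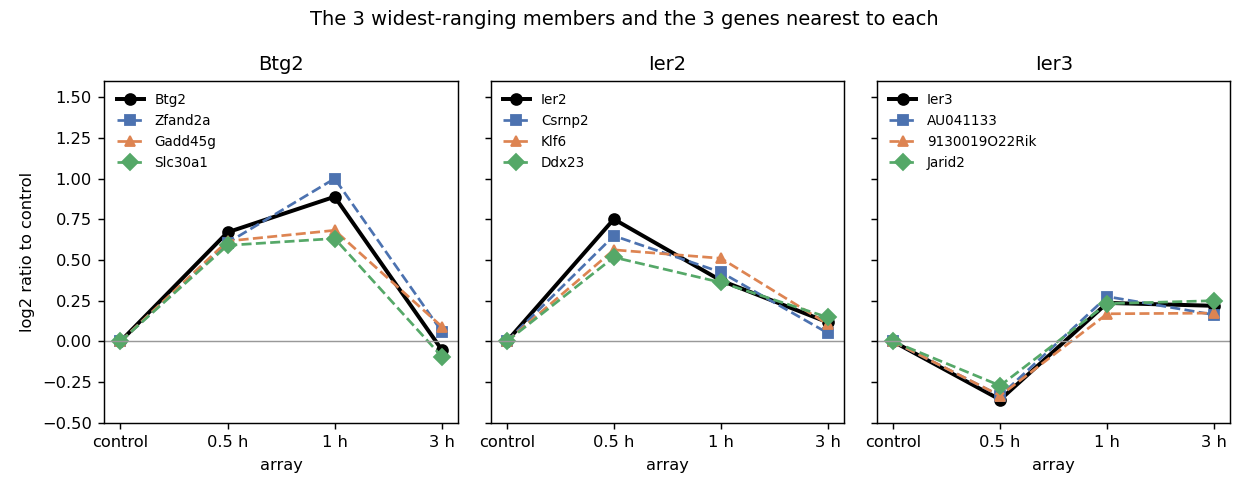
Log2 ratio to control (vertical axis) on each array (horizontal axis) for Btg2, Ier2 and Ier3 (black) and the 3 genes nearest to each (dashed), with the control at 0. The Btg2 group is high at 0.5 h and 1 h and near 0 at 3 h, the Ier2 group is highest at 0.5 h and steps down, and the Ier3 group is lowest at 0.5 h. The likeness within each group follows from how the genes were picked.

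Genes of the pathways in which the members act were counted from lists chosen by function, also with earlier results of these data known. Over all genes 0.372%, 0.948% and 0.346% rose at 0.5, 1 and 3 h, and 0.104%, 0.331% and 0.181% fell. At such shares a count of 0 is usual for lists this short, so it does not show that a pathway was unchanged. Of 15 measured genes of poly(A) tail shortening, which include the BTG/TOB partners Cnot7 and Cnot8, 0 were past 1.5-fold in either direction at 0.5, 1 or 3 h, with medians of 0.01, 0.05 and 0.02. Cnot7, a catalytic deadenylase subunit, had log2 signals of 9.58 in the control, then 9.68, 9.77 and 9.69 at 0.5, 1 and 3 h. Of 6 measured other binding partners of BTG/TOB proteins, 0 were past the rule against the control, with medians of −0.05, 0.14 and 0.02. Smad7, an inhibitor of TGF-beta signalling, fell by 0.71 on the log2 scale from 1 h to 3 h. It was the 1 of 6 to do so, where 0.452% of all genes fell. Of 12 G1 cell cycle genes, 0 were past the rule, with medians of −0.05, 0.07 and 0.06. Ccnd1, which encodes a D-type cyclin, had log2 ratios of −0.08, −0.04 and −0.17. Of 11 subunits of PP2A, the phosphatase that Ier5 brings to HSF1, 0 were past the rule and the medians were 0.02, 0.04 and 0.04.

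Immediate-early transcription factor genes are switched on by the same kinds of stimulus as the IER genes. Their list had 24 measured genes, of which 5 rose at 0.5 h, 6 at 1 h and 0 at 3 h, with none lower and with medians of 0.08, 0.22 and −0.04. Over all genes 0.372%, 0.948% and 0.346% rose at these times, 0.104%, 0.331% and 0.181% fell, and the medians were 0.01, 0.02 and 0.01. From 1 h to 3 h 8 of the 24 fell, where 0.452% of all genes fell, among them Atf3 6.39-fold, Fos 4.19-fold and Egr1 4.00-fold. Egr1, a zinc finger transcription factor gene, had log2 signals of 8.68 in the control, then 11.83, 10.83 and 8.84 at 0.5, 1 and 3 h, peaking at the time of Ier2. Atf3, a stress-inducible transcription factor gene, had log2 signals of 6.45 in the control, then 8.31, 8.71 and 6.03 at 0.5, 1 and 3 h, peaking at the time of Btg2. Of 6 mRNA-binding regulators of early transcripts, Zfp36l1, which encodes a protein that binds AU-rich elements, rose 1.78-fold at 0.5 h and 1.93-fold at 1 h. The other 5 were short of the rule, and the list medians were 0.02, 0.14 and 0.11. Its relative Zfp36l2 had log2 signals of 12.58 in the control, then 12.02, 12.37 and 12.70 at 0.5, 1 and 3 h. It was lowest at 0.5 h, like Ier3 and the brightest probe set of Tob1.

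Of 15 measured p53 targets, 0 rose at 0.5 h, 1 at 1 h and 1 at 3 h, with none lower and with medians of 0.09, 0.25 and 0.07. Of all genes, 0.372%, 0.948% and 0.346% rose at these times. Trp53inp1, which encodes a p53-inducible nuclear protein, rose 1.75-fold at 1 h, and Fas, a death receptor gene, rose 1.54-fold at 3 h. Of the 15, 9, 13 and 9 were above 0 at 0.5, 1 and 3 h, against 52.7%, 54.7% and 52.2% of all genes. From 1 h to 3 h 3 of the 15 were above 0, against 45.0% of all genes. Cdkn1a, the p53 target that encodes the inhibitor p21, had log2 ratios of 0.06, 0.07 and −0.20, and was picked after its values were seen. A link of p53 to Btg2 was not tested. Of 12 measured HSF1 targets, 7 rose at 0.5 h, 6 at 1 h and 6 at 3 h, with none lower and with medians of 0.68, 0.72 and 0.57. Over all genes 0.372%, 0.948% and 0.346% rose at these times, 0.104%, 0.331% and 0.181% fell, and the medians were 0.01, 0.02 and 0.01. Hspa1b, an inducible chaperone gene, had log2 signals of 9.95 in the control, then 13.44, 13.46 and 12.77 at 0.5, 1 and 3 h. Its transcript is nearly identical to that of Hspa1a, so their probe sets can share signal. From 1 h to 3 h 4 of the 12 fell: Hspa1a 6.13-fold, the co-chaperone genes Dnajb1 and Bag3 5.42-fold and 1.70-fold, and Hspa1b 1.61-fold. Of all genes, 0.452% fell from 1 h to 3 h. Over that step 8 of the 12 had a log2 ratio above 0, all short of the rule. At 3 h Hspa1b was 7.05-fold above the control, while Dnajb1 and Bag3, at log2 ratios of 0.26 and 0.54, were short of the rule. Hspa1a was then at least 10.8-fold above the control, where it lay under the floor.

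**Figure D5:**
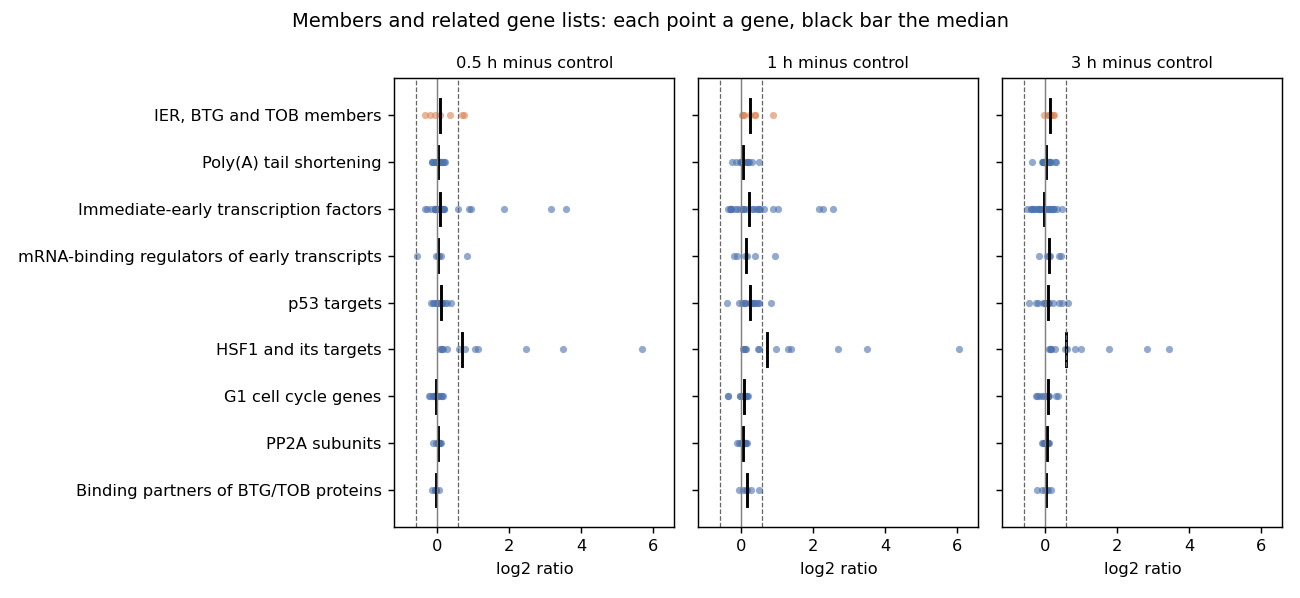
Log2 ratio to control (horizontal axis) at 0.5, 1 and 3 h for the 7 measured members (top row) and for 8 related gene lists (other rows), with a point for each gene, a black bar at the median and dashed lines at 1.5-fold; for Hspa1a, and for Fos, the point is a lower bound because the control lay under the floor. HSF1 targets have medians of 0.68, 0.72 and 0.57, and the members' medians are 0.07, 0.24 and 0.12.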

How the data were processed

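The authors deposited 1 log2 value per probe set and array, already on a common scale. Its base was inferred from the spread of the values, 1.53 to 14.5, and the summary and scaling methods are not given in the sources used here. The labels name a labelling kit that primes at the 3' end, so signal comes mostly from there. Of 45101 probe sets, 64 controls were left out, 34945 had 1 gene symbol, 932 several and 9160 none listed; symbols were updated through the Entrez number for 34741. Each gene was represented by its probe set with the highest mean. Values under the median of all values were raised to it, and a gene needed 1 of the 2 arrays above it. Comparisons were each LIPUS array minus control, 1 h minus 0.5 h and 3 h minus 1 h, with no test at 1 array per group. Members, lists and the 1.5-fold rule were chosen with earlier results of these data known. Technical SD is that of the difference in log2 ratio between the 2 brightest probe sets of a gene, divided by the square root of 2. Only probe sets above the floor on all arrays were used. This SD leaves out the spread between cultures and any error shared by the probe sets of an array. Named genes were all members, the 3 nearest genes of the 3 widest-ranging members, up to 4 genes per list past the rule, and the relatives Ier5l and Btg4; Cnot7, Ccnd1, Cdkn1a and Zfp36l2, which are short of the rule, were chosen after their values were seen. Alternatives covered the floor, scaling, probe set, fold and reference array. Sequences are from RefSeq. Python 3.11.15, numpy 2.4.6, pandas 2.3.3, R 4.3.3 and limma 3.58.1 were used.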

Additional observations from a re-analysis of the deposited data

How the results depend on the processing

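No paired analysis was possible because each group is 1 array. Counts of members past the rule were recomputed under 11 alternatives; 92 of 106 such counts were within 1.5 times the reported one, and the other 14 follow. At 2-fold the counts were 0 higher at 0.5 h, 1 h and the step to 1 h, and 0 lower from 1 h to 3 h. At a looser rule, a log2 ratio of 0.32, they were 1 lower at 0.5 h (Ier3), 3 higher at 1 h (Ier2, Ier5 and Btg2) and 1 lower from 0.5 h to 1 h (Ier2), where 1.29%, 5.32% and 2.09% of all genes were. With the floor at the 75th percentile, where Btg2 has no ratio, they were 1 higher at 0.5 h, 0 higher at 1 h and 0 lower from 1 h to 3 h. With the mean over probe sets, and with the mean of the other 3 arrays as reference, 1 member was higher at 0.5 h (Ier2, at 0.75 and 0.59). The latter reference includes other LIPUS arrays, so it is a different comparison. With quantile normalization and with cyclic loess 0 members were higher from 0.5 h to 1 h, where Ier3 was at 0.55 and 0.56. Of 296 single log2 ratios of members, 279 moved by less than the technical SD; the 17 others came from the mean over probe sets (7) or the other reference (10), and no ratio past the rule changed sign. The mean over probe sets turned Tob1 to −0.25 at 1 h and −0.11 at 3 h. Because no culture was repeated, none of these values bears on the spread between cultures.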
